A study of Mus musculus with 6 samples.

Results

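The 46 genes described here encode the machinery of mitosis: the cyclins and kinases that drive entry into division, the spindle and its motors, the kinetochores that join chromosomes to microtubules, the checkpoint that holds anaphase back, and the proteins of cytokinesis. They were taken by gene symbol from the mouse table of the study, in which all 46 were found among 27179 genes. RNA was sequenced from B16F10, a pigmented mouse melanoma line of the C57BL/6 strain that is labelled as wild type. The cells had been kept for 6 h in medium with 0.01% ozonated olive oil (OZO, 3 libraries) or with the same dose of olive oil (OLO, 3 libraries), and both groups received an oil. The values used here are 1 mean level per gene over all 6 libraries, as computed by the authors, so they describe B16F10 cells under both oils together. No value of a single library and no difference between OZO and OLO enters the text. The authors' own test of the oils was not used here, and the mean levels carry no error between replicates.

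A cell that divides first loads CDK1 with cyclin A and cyclin B. WEE1 holds this kinase back and the CDC25 phosphatases release it. Sister chromatids are parted when CDC20 turns on the anaphase-promoting complex, a ubiquitin ligase whose targets include cyclin B and securin. Transcripts of many of these proteins peak late in the cell cycle. The complexes MMB and DREAM bind a short promoter element, the cell cycle genes homology region (CHR), and NF-Y binds CCAAT boxes, which often lie upstream of it.

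The labelled cell type was checked first. Of 10 melanocyte lineage genes, 9 reached 1 CPM (CPM are read counts scaled to a common library size). They ran from Sox10 at 109 CPM to Dct, a melanin synthesis enzyme, at 7052 CPM, while Oca2 lay at 0.924 CPM. Krt5, a keratin of basal keratinocytes, had 0 reads, and Krt14, Krt1 and Krt10 lay at or under 0.0367 CPM. Ptprc, the pan-leukocyte marker, lay at 0.0702 CPM and Pecam1 of endothelium at 1.21 CPM. The highest of the 4 fibroblast genes was Col1a1 at 1.70 CPM, and the leukocyte gene Cd68, also made in lysosome-rich cells of other kinds, stood at 5.47 CPM. Depth of single libraries is unknown. A typical library held 19641946 reads on the scale of the values (a geometric mean), which makes 1 CPM worth 19.6 reads.

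Promoter sequence was read for the 37 members that had a RefSeq window of 250 bases before to 50 bases after the start (40 windows, GRCm38.p6). Aurkb, Ccna2, Cdc25c, Foxm1, Incenp, Kif20a, Spc24, Tpx2 and Wee1 were not matched. A CHR motif was searched as TTTGAA or TTCGAA and a CCAAT box as CCAAT, each on both strands, so that ATTGG is a box and TTCAAA a CHR motif read from the other strand. The sequences below are shown because they hold a pair of neighbouring boxes 30 to 35 bases apart. In every gene shown but Ccnb1, the case with boxes alone, a CHR motif follows the pair. This spacing was set after the positions in these members had been seen. It was found in 8 of the 37 members (21.6%) and in 1.76% of the 26988 other genes with a window. Among the 9054 other protein-coding genes with at least 1 CPM the share was 3.07%. Aurka and Hmmr have the same layout with a CHR motif after the pair and are not printed, because stretches were limited to 30 bases after the start, which the motif of Aurka passes, and to 150 bases in all, which that of Hmmr exceeds. Boxes and CHR motifs are in capitals and each sequence runs 5′ to 3′ on the strand of its gene.
Ccnb1: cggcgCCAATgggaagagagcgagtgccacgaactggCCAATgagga
Ccnb2: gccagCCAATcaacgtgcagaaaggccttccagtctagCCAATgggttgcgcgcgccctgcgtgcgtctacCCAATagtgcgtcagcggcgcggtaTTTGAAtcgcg
Cdca8: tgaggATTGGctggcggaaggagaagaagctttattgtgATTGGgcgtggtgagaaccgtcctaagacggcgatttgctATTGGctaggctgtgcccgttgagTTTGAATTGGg
Cdk1: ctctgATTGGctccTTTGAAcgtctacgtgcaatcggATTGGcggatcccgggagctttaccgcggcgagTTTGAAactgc
Spc25: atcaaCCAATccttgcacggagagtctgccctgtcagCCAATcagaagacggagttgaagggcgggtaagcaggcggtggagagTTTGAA
Ube2c: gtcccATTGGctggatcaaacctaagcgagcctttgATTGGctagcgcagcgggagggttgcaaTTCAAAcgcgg

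These stretches lie at chr13:100786544-100786590 (minus strand) for Ccnb1, cyclin B1, and at chr9:70421540-70421646 (minus strand) for Ccnb2, cyclin B2. They lie at chr4:124936894-124937007 (minus strand) for Cdca8, the borealin subunit of the chromosomal passenger complex, and at chr10:69352917-69352997 (minus strand) for Cdk1. For Spc25, a subunit of the NDC80 complex, the stretch is chr2:69206184-69206273 (minus strand), and for Ube2c, the ubiquitin-conjugating enzyme that serves the anaphase-promoting complex, it is chr2:164769836-164769910 (plus strand). First bases of the paired boxes were 32 bases apart in Ccnb1, Cdk1 and Spc25, 31 in Ube2c and 34 in Cdca8. In Ccnb2 the 3 boxes were spaced by 33 bases each. Cdca8 carries a CHR motif that shares its last base with a CCAAT box, and Cdk1 has a second CHR motif between its boxes. The RefSeq start of Cdca8 lay 2394 bases downstream of the outermost GENCODE start.

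A CHR motif was present in the windows of 30 of 37 members (81.1%). It was present in 21.6% of the 26988 other genes with a window and in 1453 of the 9054 other protein-coding genes with at least 1 CPM. In 28 members (75.7%) a CHR motif lay within 100 bases of the start, against 9.78% of all other genes. In 27 members its first base was within 50 bases of the start. The share of other genes at that limit was not computed, so this count has nothing to be set against. Plk1, the polo-like kinase of mitotic entry, had a CHR motif at 30 bases after the start. Kif11, the plus-end motor that pushes spindle poles apart, had one at -19. Members without the motif in these windows were Birc5, Ccnb1, Cenpe, Mad2l1, Nuf2, Nusap1 and Pttg1.

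At least 2 CCAAT boxes were found in 18 of the 37 members (48.6%), compared with 13.2% of all other genes and 17.3% of the other protein-coding genes with at least 1 CPM. Both features together, a CHR motif and 2 or more boxes, were in 17 members (45.9%) against 2.62% and 2.72%. Seen from the other side, these 17 were 4.10% of the 415 genes with reads that hold both. Birc5, Mad2l1, Nuf2, Nusap1 and Pttg1 had neither a CHR motif nor a box. Of the 40 member windows, 32 had a RefSeq start within 100 bases of the outermost GENCODE start. The RefSeq start lay at -169 bases from it in Mad2l1, whose whole window comes before the GENCODE gene. In Pttg1 it lay 270 bases downstream, and in Kif2c 3867. A missing match says only that these letters are not in the window used.

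**Figure D1:**
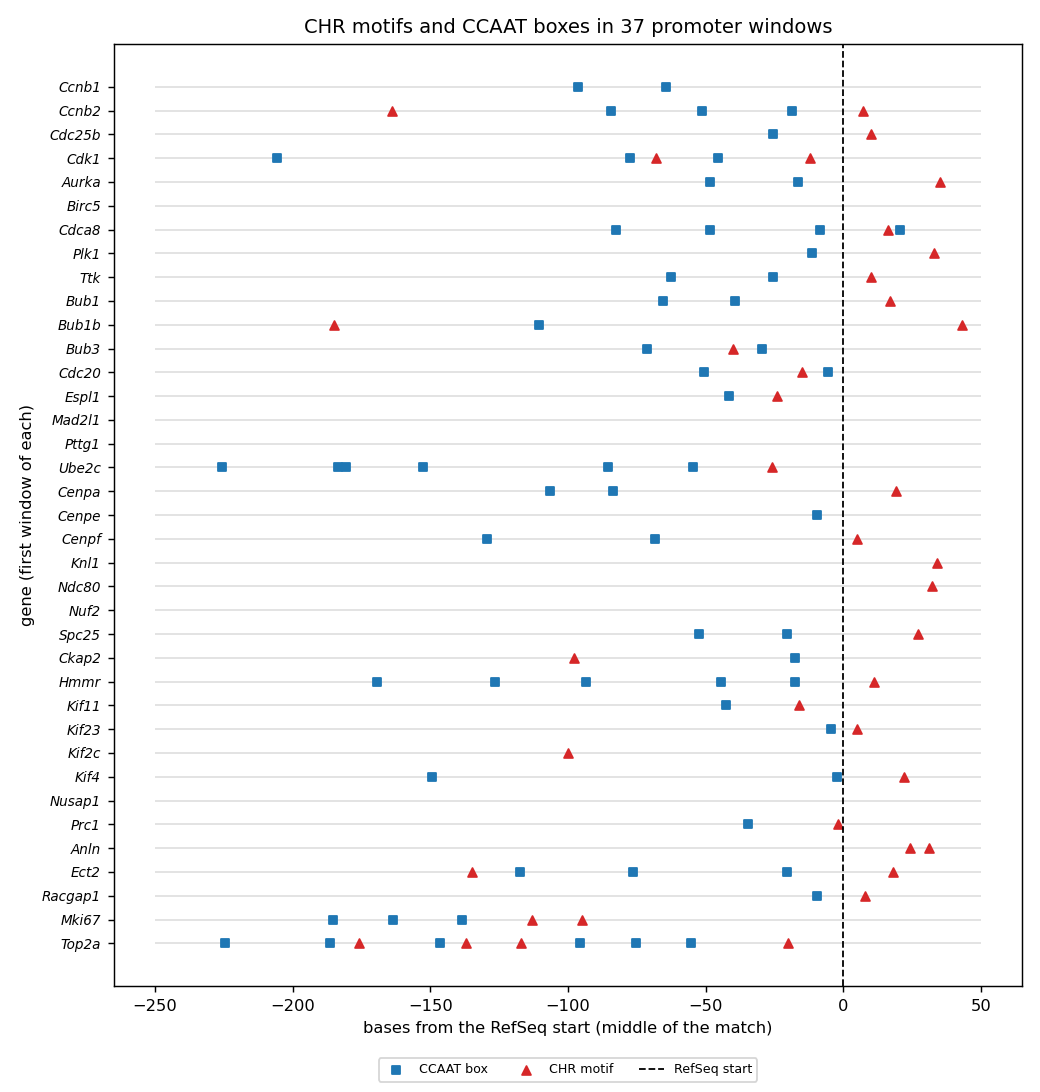
Positions of CHR motifs (triangles) and CCAAT boxes (squares) in the first promoter window of 37 members, in bases from the RefSeq start (dashed line). Genes are ordered by role, and most triangles lie within 50 bases of the start with the squares to their left.

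**Figure D2:**
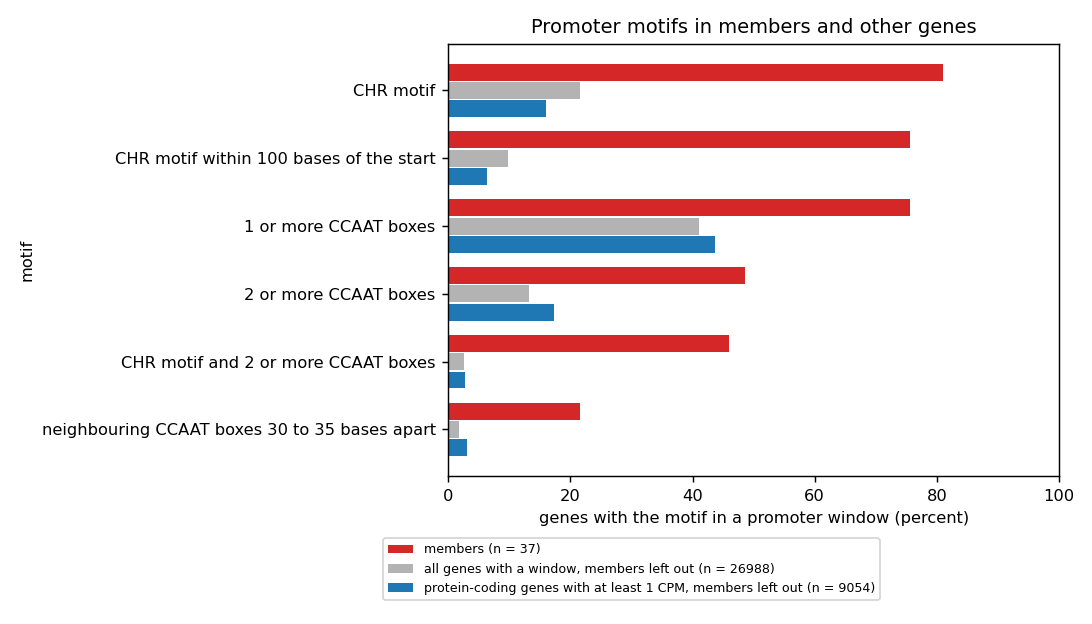
Percent of genes with each motif in a promoter window, for 37 members, for 26988 other genes and for 9054 other protein-coding genes with at least 1 CPM. The CHR motif was in 81.1% of members, in 21.6% of all other genes and in 1453 of the 9054 protein-coding ones.

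Levels of members with and without the CHR motif overlapped. Divided by the length of the longest transcript, the median level was 38.8 CPM per kilobase (kb) in the 30 members with a CHR motif and 33.2 CPM per kb in the 7 without one. The order turned with the scaling. Per kb of coding sequence the medians were 78.0 with and 111 CPM per kb without the motif, and in CPM not divided by length they were 129 and 143. No order of the groups is therefore given. Per kb of longest transcript the values ran from 10.1 to 240 CPM per kb with the motif and from 9.25 to 132 CPM per kb without.

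All 46 members lay above the median of genes with reads, by CPM that are not divided by length. The one with the fewest counts, Pttg1 (securin, the inhibitor of separase; chr11:43420250-43426251, GRCm38), stood at 15.5 CPM or 304 reads a library, and the one with the most, Top2a (topoisomerase II alpha, which untangles sister chromatids; chr11:98992943-99024189), at 1251 CPM or 24570 reads. The members' median level was 129 CPM (quartiles 82.6 and 230 CPM), where the median of the 21154 genes with reads was 2.73 CPM. Pttg1 lay at percentile 63.0 and Spc24 at percentile 67.7 of these genes. In all, 44 members were at or above the percentile 75 and 26 at or above the percentile 90 of genes with reads. Among genes with at least 1 CPM, 44 of 46 members lay at or above the median. Because the RNA came from whole cultures, many cells with few copies and few cells with many copies cannot be told apart in these levels.

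Counting error of a mean level was between 0.0038 and 0.034 on the log2 scale over the members. It covers the drawing of reads alone, and the spread between cultures is not part of it. Summed over the members, the levels came to 8956 CPM, which is 0.896% of the total to which CPM are scaled. Top2a and Mki67, the antigen Ki-67 that coats mitotic chromosomes, made up 24.5% of that sum. By level, 3 members lay under 50 CPM, 13 between 50 and 100, 17 between 100 and 200, 11 between 200 and 500, and 2 at or above 500 CPM. Of all genes with reads, 78.5% lay under 50 CPM and 1.03% at or above 500 CPM.

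**Figure D3:**
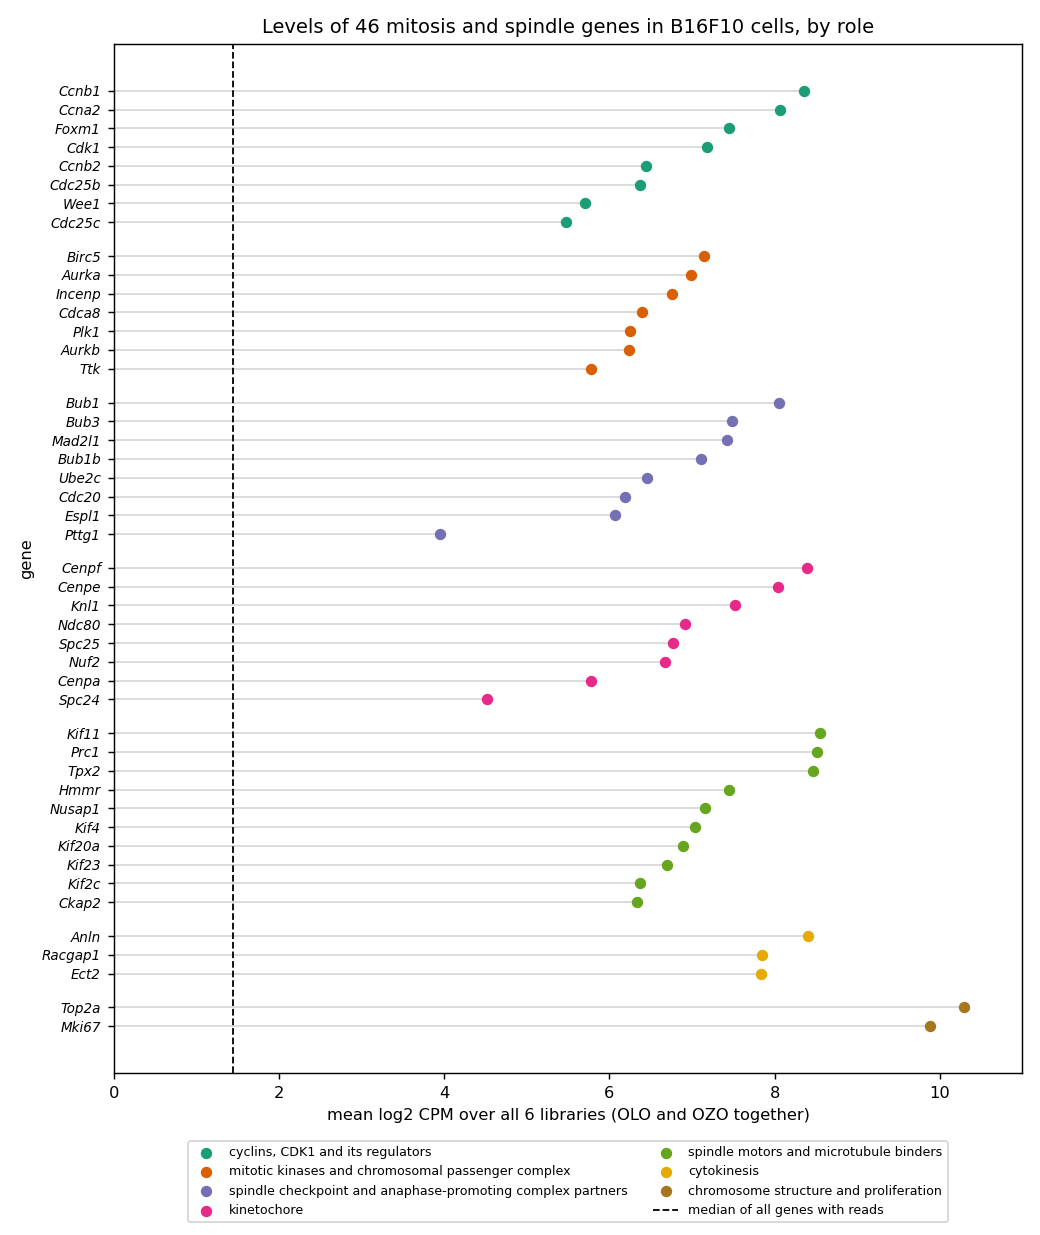
Mean log2 CPM of the 46 members over all 6 libraries, grouped by role, 1 point a gene. Every point lies to the right of the dashed line, the median of genes with reads, from Pttg1 (15.5 CPM) to Top2a (1251 CPM).

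Long transcripts yield more reads, so the CPM above place each gene by its share of reads, and the comparisons between genes that follow use CPM per kb of the longest GENCODE transcript. Across the 46 members the log2 level went with the log2 of that length (Pearson r = 0.61, Spearman rho = 0.63). The values were lower across 11186 protein-coding genes with at least 1 CPM (r = 0.19, rho = 0.21). With coding length they were r = 0.52 and rho = 0.44 across the members, and r = 0.11 and rho = 0.13 across the 11186 genes. These are correlations across genes of the same libraries, given as a description. Per kb the members ran from 9.25 to 240 CPM, a 25.9-fold range in place of the 80.8-fold range of CPM. Their median was 36.1 CPM per kb, and all 46 exceeded the median of 1.87 CPM per kb of the 19227 genes with reads and a length.

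Among cyclins, CDK1 and its regulators (8 genes, median 35.4 CPM per kb), Ccnb1 at 132 and Ccna2, cyclin A2, at 90.7 CPM per kb were the highest. Wee1 was the lowest at 15.2 CPM per kb. Ccnb1 stood 2.31-fold above Ccnb2 per kb, and between 2.31-fold and 4.86-fold above it over 3 ways to set length. Cdc25b, the phosphatase that starts CDK1 activation at the centrosome, stood 1.58-fold above Cdc25c (1.43 to 3.33) and 1.76-fold above Wee1 (1.76 to 7.17). Foxm1, a transcription factor of G2 and M phase genes, was read at 37.6 CPM per kb and Cdk1 at 33.2 CPM per kb. Ccnb2, Cdc25b and Cdc25c stood at 57.0, 26.7 and 17.0 CPM per kb. The Ccnb1 value needs care, since 51.9% of its longest transcript matches pseudogenes at 95% identity or more. One of these, Ccnb1-ps, was listed at 2.84 CPM.

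Mitotic kinases and the chromosomal passenger complex (7 genes) had a median of 34.5 CPM per kb. Aurka, the kinase of centrosomes and spindle poles, led at 66.6 CPM per kb, followed by Birc5 (survivin) at 42.6 CPM per kb. Ttk, the checkpoint kinase MPS1, was lowest at 19.1 CPM per kb. The passenger complex holds AURKB, INCENP, survivin and borealin. Per kb, Birc5 stood 1.10-fold above Aurkb, 1.35-fold above Incenp and 1.70-fold above Cdca8, but each of these 3 ratios turned below 1 when the median transcript length was used. No order among the 4 subunits is therefore given. Their levels were 42.6 for Birc5, 38.7 for Aurkb, 31.5 for Incenp and 25.1 CPM per kb for Cdca8. Plk1 stood at 34.5 CPM per kb.

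For the spindle checkpoint and the partners of the anaphase-promoting complex (8 genes, median 38.9 CPM per kb), Bub1 at 77.7 CPM per kb and Bub3 at 44.6 CPM per kb led. Bub1 stood 2.05-fold above Bub1b, which encodes the checkpoint protein BUBR1 (1.90 to 2.05 over the 3 lengths). Cdc20, the activator of the ligase in mitosis, stood 5.04-fold above Fzr1, the activator used on leaving mitosis (2.92 to 6.08). Cdc20 itself was at 40.8, Ube2c at 39.9, Bub1b at 37.8 and Mad2l1, the checkpoint protein that captures CDC20, at 22.7 CPM per kb. Lowest were Pttg1 at 9.25 and Espl1, the protease separase that cuts cohesin, at 10.1 CPM per kb. The ratio of these last members, an inhibitor and its enzyme, was 1.09 for Espl1 over Pttg1 and went from 0.406 to 4.59 with the choice of length, so their order is not set.

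Kinetochore genes (8) had the lowest role median per kb, 28.2 CPM. Spc25 was highest at 58.2 and Cenpe, the motor that carries chromosomes to the spindle equator, next at 33.2 CPM per kb. The 4 subunits of the NDC80 complex, which grips the microtubule end, were unequal. Spc24 was lowest at 13.6 CPM per kb, and Spc25 stood 4.29-fold (3.26 to 4.29), Ndc80 2.31-fold (1.64 to 2.31) and Nuf2 1.93-fold (1.71 to 1.93) above it. These 3 directions were the same under each of the 3 lengths. Cenpf, Ndc80, Nuf2 and Knl1, the scaffold that recruits the BUB proteins, were at 30.1, 31.3, 26.2 and 23.5 CPM per kb. Cenpa, the histone H3 variant that marks centromeres, stood at 14.4 CPM per kb of its longest transcript and at 137 CPM per kb of its coding sequence, of which it has only 402 nt.

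Spindle motors and microtubule binders (10 genes) had a median of 36.4 CPM per kb. Prc1, which bundles the antiparallel microtubules of the central spindle, was highest at 100 CPM per kb, and Tpx2, an activator of Aurora A, second at 80.7 CPM per kb. Kif4, a motor that works with PRC1, was lowest at 26.4 CPM per kb. With the median transcript length Kif4 (186 CPM per kb) and Prc1 (185 CPM per kb) were the highest of the role instead, so the place of Kif4 is not set. Tpx2 stood 1.21-fold above Aurka (1.21 to 1.55). The other members of the role, Kif11, Hmmr, Nusap1, Kif20a, Ckap2, Kif23 and Kif2c, lay between 29.2 (Kif2c, a depolymerase of microtubule ends) and 77.7 CPM per kb (Kif11).

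Of the 3 cytokinesis genes, Anln (anillin, a scaffold of the contractile ring) was at 73.7, Ect2 (the exchange factor that activates RhoA) at 55.8 and Racgap1 at 51.6 CPM per kb. Racgap1 forms the centralspindlin complex with Kif23 and stood 1.68-fold above it (1.68 to 3.37). Top2a at 240 CPM per kb was the highest of all 46 members, 2.56-fold above Mki67 at 93.5 CPM per kb (2.56 to 8.81).

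**Figure D4:**
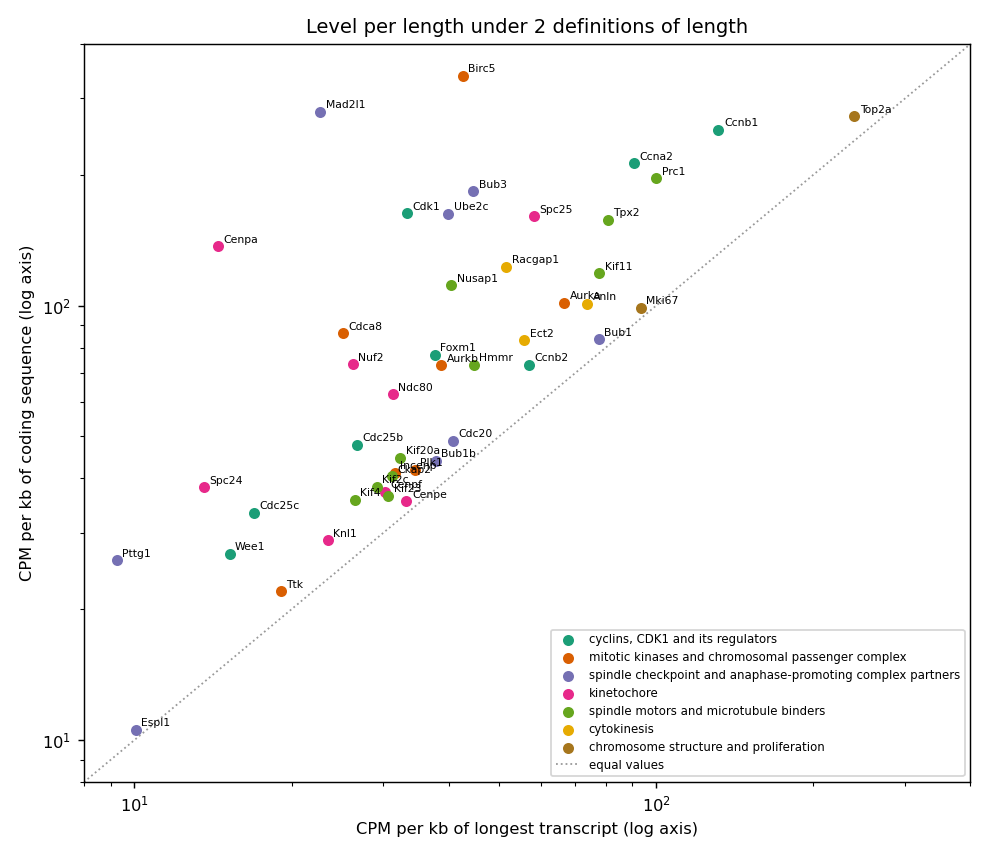
Level of each member per kb of its longest transcript (horizontal, log axis) against its level per kb of coding sequence (vertical, log axis), coloured by role. Birc5, Mad2l1 and Cenpa lie far above the line of equal values, and Top2a and Mki67 lie close to it.

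The order of single members depended on the length used. Per kb of longest transcript the 5 highest were Top2a, Ccnb1, Prc1, Mki67 and Ccna2, and the 5 lowest Wee1, Cenpa, Spc24, Espl1 and Pttg1. Per kb of coding sequence the highest were Birc5 (338 CPM per kb), Mad2l1 (279), Top2a (273), Ccnb1 (254) and Ccna2 (212). By that measure Espl1 was lowest at 10.5 CPM per kb. With the median transcript length the highest were Top2a (1558 CPM per kb), Anln (506), Cenpe (451), Bub1 (436) and Ect2 (320), and Wee1 was lowest at 15.2 CPM per kb. The highest and lowest members named for each role above hold for the longest transcript. Of the 10 highest members, 4 were shared by the orders of longest transcript and coding sequence, and of the 10 lowest, 6. The rank correlation of these orders across the 46 genes was 0.68.

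Other genes of the same process were read from lists of complexes. All 15 listed genes of the anaphase-promoting complex and its activator Fzr1 reached 1 CPM, and they ran from Cdc26 at 5.28 to Anapc5 at 141 CPM per kb, with a median of 12.9 CPM per kb. All 13 condensin and cohesin genes did so, from Ncapd3 at 18.9 to Smc4 at 143 CPM per kb, with a median of 56.2 CPM per kb. The 13 genes of MMB, DREAM and NF-Y also reached 1 CPM, and those with a length ran from Lin37 at 6.55 to Rbbp4 at 72.6 CPM per kb. Mybl2, the MYB family subunit that joins MMB, stood at 13.4 CPM per kb and Nfya, the sequence-reading subunit of NF-Y, at 31.9 CPM per kb. The median of this list was 18.9 CPM per kb over the 12 genes with a length. The members' median of 36.1 CPM per kb thus lay between those of the ligase and of the condensin and cohesin genes, and the ranges of all 4 lists overlapped.

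**Figure D5:**
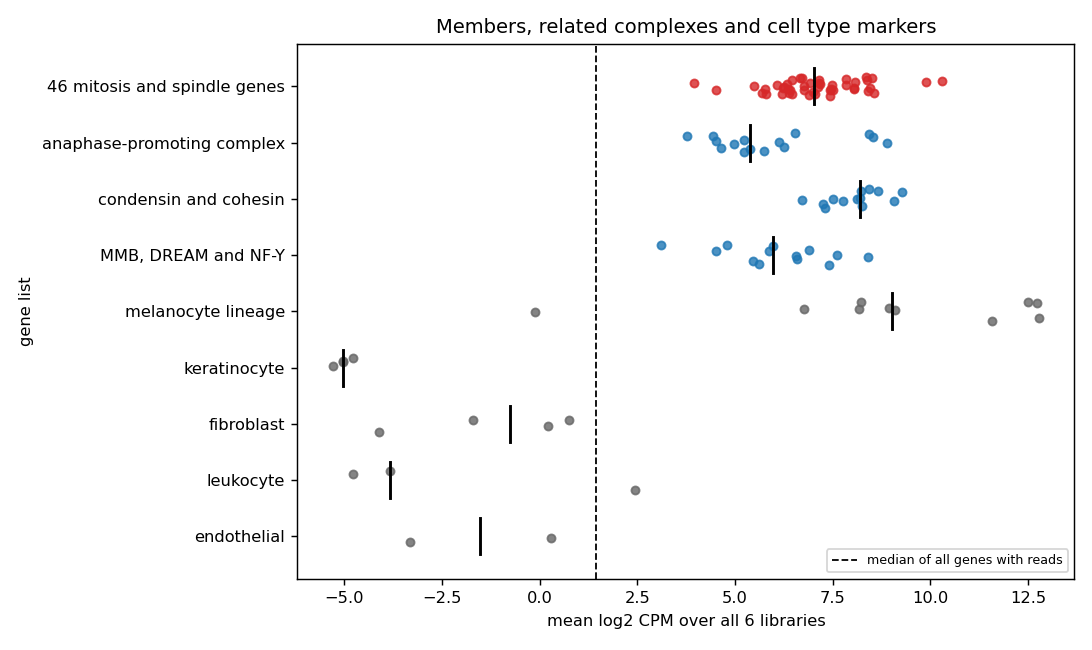
Mean log2 CPM over all 6 libraries, 1 point a gene, for the 46 members (red), 3 lists of related complexes (blue) and 5 lists of cell type markers (grey), with the median of each list as a bar. Points of the melanocyte lineage lie at the right except Oca2, and those of keratinocytes at the left edge.

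Some members share sequence with other genes. Exons of 13 members overlap another annotated gene, most in Kif20a, where 29.3% of the exon bases are shared with Cdc23 on the opposite strand, and Ube2c, where 22.8% are shared with Tnnc2. The library kit keeps strand, but the strand setting of the counting is not given in the sources used here. How reads in the shared bases were assigned is therefore not known, and these levels are uncertain by those reads. In Foxm1 and Top2a the overlapping genes lie on the same strand, so strand would not separate them. Besides Ccnb1, 7 members had at least 150 nt in common with another transcript at 95% identity or more, the longest being 454 nt in Mad2l1 (6.01% of its longest transcript).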

How the data were processed

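RNA of B16F10 cells (OZO and OLO, 3 libraries each) was sequenced as paired reads from a directional kit. According to the methods and the labels, the authors aligned reads to mm10 with HISAT2 (2.1.0), counted them with featureCounts (2.1.1) and ran limma-voom (limma 3.58.1). The strand setting is not given in the sources used here. The deposited table holds 27179 genes, and its log2 values used here are the authors' mean log2 CPM per gene over all 6 libraries. Its other columns hold the authors' own comparison of OZO with OLO (log2 fold changes, moderated statistics, p-values and log odds) and were not used. It has 0 columns of single libraries, so the planned tests between groups, which needed them, were not run, and no error between replicates is given.

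The members and lists were chosen with earlier results of these data known. Genes without reads (6025) share the lowest level. With the 0.5 that voom adds to each count, that level gave a geometric mean library size, and from it reads per gene and a counting error. Lengths, positions and exon overlaps came from GENCODE M21 (GRCm38), in which 23882 of 24126 Ensembl identifiers were found. Similar transcripts were searched with BLAST+ (2.17.0; at least 95% identity over 150 nt). Promoters came from RefSeq. Values were named for the 2 highest and the lowest member of each role per kb, and for the 5 highest and 5 lowest of all. Pairs of partner genes, other genes given with values, the protein-coding genes set beside the promoters and the box spacing of 30 to 35 bases were chosen after values were seen. Scripts (Python 3.11.15, numpy 2.4.6, pandas 2.3.3, matplotlib 3.10.9) were tested on simulated data.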

Additional observations from a re-analysis of the deposited data

How the results depend on the processing

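The median percentile of the members was 91.2 among genes with reads, 93.2 among all genes of the table, 91.0 among genes with a symbol and reads, 89.5 among protein-coding genes with reads and 84.4 among genes with at least 1 CPM. In the last set 44 of 46 members lay at or above the median, and in the others all 46. Of the 46, 45 reached 20 CPM. The median log2 level per kb was 5.17 with the longest transcript, 6.66 with the median transcript length, which includes short fragments, and 6.19 with coding length, and all 46 members stayed at or above the reference median each time. On the sense strand alone 24 of the 37 members (64.9%) had a CHR motif in place of 30, against 13.1% of all other genes with a window and 9.97% of the protein-coding ones with at least 1 CPM. With 1 CCAAT box as the limit, 28 members (75.7%) passed in place of 18 (48.6%), and the share of all other genes rose from 13.2% to 41.0%, with 43.6% of the protein-coding ones. No paired analysis was possible because each gene has 1 mean level over all 6 libraries, and leaving out a library was not possible for the same reason. The planned search of member proteins for KEN boxes was not run, since no protein table was used here. Depth limits single levels little at 304 reads or more, but no spread between libraries was derived here.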

Other observations

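The spacing of CCAAT boxes was looked at after their positions had been seen, so the limit of 30 to 35 bases was set on these genes and the counts are a description. Neighbouring boxes 30 to 35 bases apart were found in Aurka, Ccnb1, Ccnb2, Cdca8, Cdk1, Hmmr, Spc25 and Ube2c, which are 8 of the 18 members with at least 2 boxes (44.4%). Of the other genes with at least 2 boxes, 475 of 3567 (13.3%) had such a pair, and 278 of 1566 (17.8%) of the protein-coding ones with at least 1 CPM. The order of levels depended on the scaling. Median level was 50.5 CPM per kb of the longest transcript in the 8 genes and 33.2 CPM per kb in the 29 other members with a window, and the range of the first (25.1 to 132 CPM per kb) lay within that of the others (9.25 to 240 CPM per kb). Per kb of coding sequence the medians were 128 and 62.5 CPM per kb, but with the median transcript length they were 88.1 and 105 CPM per kb, and in CPM not divided by length 117 and 142. Top2a had the most CHR motifs in its window, 4, beside 6 boxes, with no pair at that spacing. Ube2c also had 6 boxes, 2 of which overlapped, with first bases 3 bases apart.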
